A study of Mus musculus with 9 samples.

Results

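The genes described here belong to the MHC class I presentation pathway and the immunoproteasome: the heavy chains H2-K1 and H2-D1, their light chain B2m, the peptide transporter Tap1 and Tap2, tapasin (Tapbp), the inducible proteasome subunits Psmb8, Psmb9 and Psmb10, and the transactivator Nlrc5. They were chosen by symbol, with earlier results of these data known. Of these 10 genes, 9 were found among the 15228 genes with a deposited level, and Psmb9 was not analysed here. Of the 9, 7 had a mean level of 0.5 RPKM (reads normalized for exon length and library total) or more over all libraries and were among the 13566 genes tested. The other 2, Nlrc5 and Tap1, lay below that level, and their tests come from a fit to all 15228 genes.

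MHC class I molecules show peptides from inside a cell to cytotoxic T cells. The proteasome cuts proteins into peptides, the TAP transporter pumps them into the endoplasmic reticulum, and tapasin helps to load them onto a heavy chain that is held by β2-microglobulin. Interferons raise the whole pathway, partly through the transcription factor IRF1 and the transactivator NLRC5, and they replace the constitutive catalytic subunits of the proteasome with inducible ones, which gives the immunoproteasome. Neurons at rest carry little class I, whereas microglia and blood vessel cells carry more.

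RNA was sequenced from retinal cells of wild-type C57BL/6J mice, young adults of both sexes, that were sorted as retinal ganglion cells (RGCs). Per the study's methods, the sorted cells carried CD90.2, a surface antigen of RGCs and other neurons, and lacked CD48, which many leukocytes carry, CD15 and CD57. Ctrl cells came from normal intact retinas, and no injection is stated for them. ONC cells came from retinas 3 d after optic nerve crush with an intraocular injection of vehicle, labelled PBS. TPEN cells came from retinas 3 d after crush with an intraocular injection of TPEN, a membrane-permeable zinc chelator. Crush and injection therefore cannot be told apart in ONC/Ctrl and TPEN/Ctrl. Each group had 3 libraries, and nothing states that those of a group came from separate mice, so p-values measure only the spread between these libraries, which may be technical. The libraries held 19946993 to 23109754 reads, and log2 levels had Pearson correlations of 0.991 to 0.993 across genes within a group and 0.970 to 0.984 between groups.

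Per its methods, the study also checked sorted cells by immunofluorescence for RBPMS, an RGC marker protein. In the RNA levels used here, the markers only partly bore out the name of the sorted cells. Of the RGC markers, Nefl and Nefm, neurofilament genes that other neurons also use, had mean levels of 198 to 264 RPKM and 44.8 to 60.2 RPKM in the 3 groups, whereas Rbpms, a defining marker, averaged 0.605, 0.393 and 0.319 RPKM in Ctrl, ONC and TPEN. Sncg, the synuclein gene of RGCs, averaged 19.9, 23.3 and 18.4 RPKM, and Thy1, which encodes CD90, 4.74, 5.35 and 7.12 RPKM. Of 10 RGC markers, 7 had a level and 4 were tested, and limma with or without voom called none of the 4 in any comparison. At an unadjusted p under 0.05, 3 of the 4 were higher in ONC/Ctrl, and 3 were lower and 1 higher in TPEN/ONC. All 4 passed the limit on adjusted p in TPEN/ONC but not that on fold change. Nefl, Nefm, Sncg and Thy1 had log2 fold changes of -0.42, -0.42, -0.34 and 0.40 there (limma adjusted p = 6.26e-05, 0.000380, 0.0161 and 0.00587). In ONC/Ctrl, Nefm and Sncg passed on p alone (0.28 and 0.23, limma adjusted p = 0.00111 and 0.0458). Below the filter, Pou4f1 fell in ONC/Ctrl and Rbpms in TPEN/Ctrl (log2 fold change -1.30 and -0.77, limma adjusted p = 0.0108 and 0.0333, fit to all listed genes), and the call of Rbpms was lost in 5 of 9 fits without 1 library. The 9 rod markers, Gnat1 among them, summed to 19573 to 20235 RPKM in the Ctrl libraries, 17234 to 17334 RPKM in ONC and 18441 to 18481 RPKM in TPEN. At an unadjusted p under 0.05, 7 of them were lower and 1 higher in ONC/Ctrl, and 4 were higher and 1 lower in TPEN/ONC. None of the 9 was called, since no change reached 1.5-fold. Of 19 microglia and macrophage markers, 15 had a level, and their sum was 9.81 to 9.98 RPKM in the Ctrl libraries, 60.7 to 62.7 RPKM in ONC and 34.7 to 37.8 RPKM in TPEN. None of the 15 was at 0 in all libraries of a group. All 13 of them that were tested rose in ONC/Ctrl, beside 4.58% of all genes tested, in cells gated as CD48 negative. The filter used the mean of all 9 libraries. Most of these 13 markers, with Ctrl means of 0.067 to 0.340 RPKM, passed it only through their levels after crush. The count of 13 and the medians of these markers rest in part on that filter. In sorted bulk samples, more cells of a type and more RNA per cell cannot be told apart, and the part of microglia and macrophages in the values below was not tested.

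Most of the class I genes were lowest in Ctrl, highest in ONC and between these in TPEN. In ONC/Ctrl, 5 of the 7 genes tested were upregulated (H2-K1, H2-D1, B2m, Tap2 and Psmb8) by limma (adjusted p under 0.05, change of 1.5-fold or more), where 4.58% of all genes tested were upregulated and 0.752% downregulated. Psmb8 averaged 0.425 RPKM in Ctrl, so it was among the 7 only through its levels after crush. Nlrc5 and Tap1 rose as well in the fit to all listed genes. In TPEN/ONC, 3 of the 7 were downregulated (H2-K1, H2-D1 and Psmb8), beside 1.21% of all genes tested, and Nlrc5 and Tap1 fell in the fit to all listed genes. None of the 7 was upregulated in TPEN/ONC by limma with or without voom. With 0.818% of all genes upregulated there, a count of 0 is not particular to these genes. At an unadjusted p under 0.05, 5 of the 7 were lower and 0 higher. In TPEN/Ctrl, 4 of the 7 (H2-K1, H2-D1, B2m and Psmb8) were upregulated, and Nlrc5 rose in the fit to all listed genes, beside 3.45% of genes upregulated and 0.457% downregulated. The median log2 fold change of the 7 genes was 1.93 in ONC/Ctrl, -0.75 in TPEN/ONC and 1.07 in TPEN/Ctrl, and that of all genes tested was 0.017, -0.011 and 0.012. The comparisons share libraries with each other, so they are not independent. Microglia and macrophage markers moved in the same order, with a median over 13 genes of 2.73, -0.83 and 1.86. Most of these 13 passed the filter only through their levels after crush. Every ONC library lay above every Ctrl library for 8 of the 9 class I genes, beside 21.3% of all 15228 listed genes. Every TPEN library lay below every ONC library for 8 of the 9, beside 15.6%, and above every Ctrl library for 7 of the 9, beside 19.0%.

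**Figure D1:**
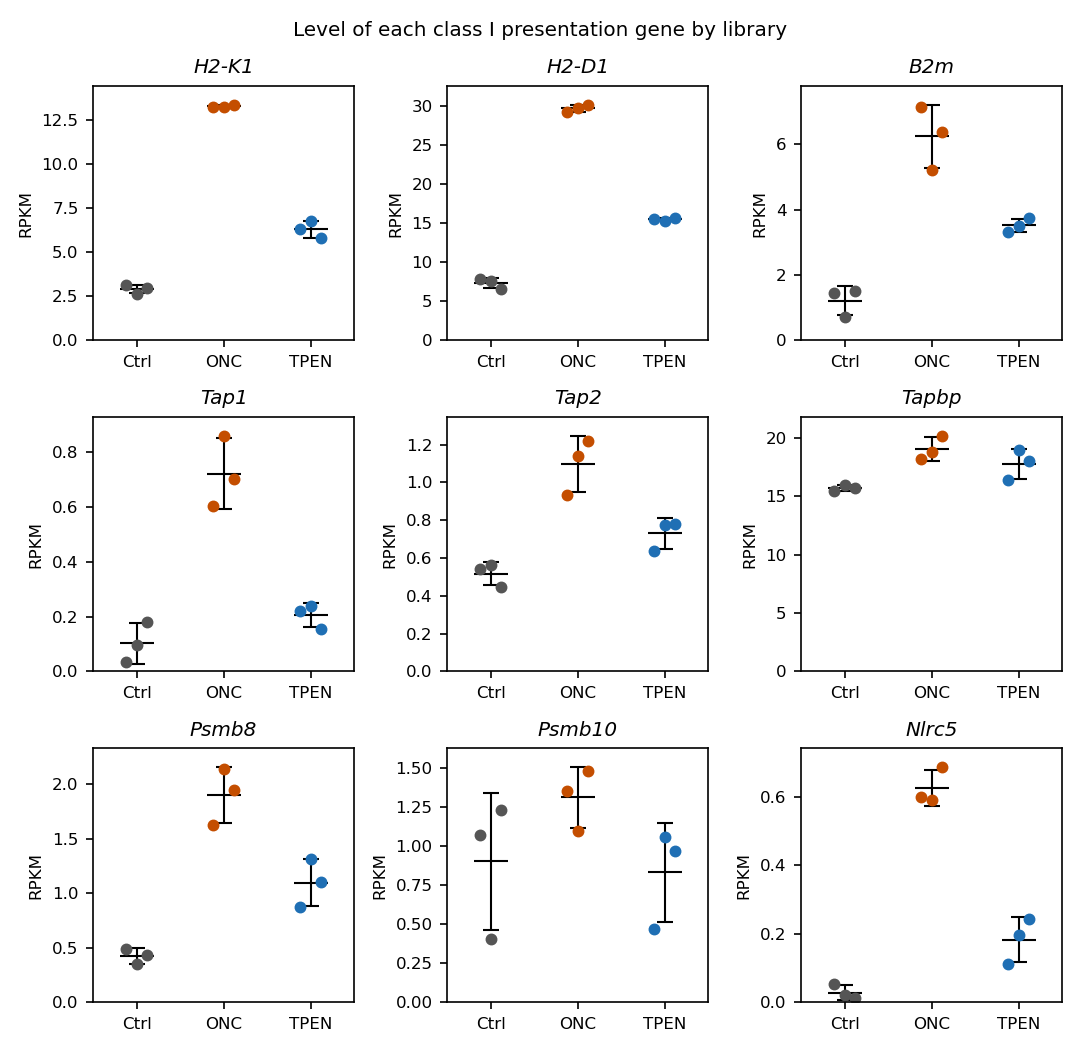
Levels of the 9 class I presentation genes in RPKM (y axes, from 0) in the 3 Ctrl, 3 ONC and 3 TPEN libraries. Points are libraries, the horizontal line is the mean and the bars are the SD. All ONC libraries lie above all Ctrl libraries for 8 of the 9 genes, beside 21.3% of all listed genes, and Psmb10 is the exception.

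The classical heavy chains, which hold the displayed peptide, rose in ONC/Ctrl and fell in TPEN/ONC. H2-D1, on chromosome 17 (35262730 to 35267499, GRCm38, plus strand), was at 7.91, 7.55 and 6.59 RPKM in Ctrl, 29.2, 29.7 and 30.1 RPKM in ONC and 15.6, 15.3 and 15.6 RPKM in TPEN. No library of one group overlapped with another group, and the ONC libraries differed from each other by less than 1 RPKM. Its log2 fold change was 2.00 (SE 0.061, limma adjusted p = 2.08e-08) in ONC/Ctrl and -0.93 (SE 0.061, limma adjusted p = 2.68e-05) in TPEN/ONC. H2-K1, on chromosome 17 (33996017 to 34000333, minus strand), was at 3.13, 2.65 and 2.96 RPKM in Ctrl, 13.2, 13.3 and 13.4 RPKM in ONC and 6.35, 6.80 and 5.82 RPKM in TPEN. The 3 groups were again fully apart, and the level of H2-K1 per exon length stayed below that of H2-D1 in all 9 libraries. Its log2 fold change was 2.16 (SE 0.076, limma adjusted p = 6.08e-08) in ONC/Ctrl and -1.06 (SE 0.076, limma adjusted p = 4.25e-05) in TPEN/ONC. Both genes still exceeded Ctrl in TPEN, with log2 fold changes of 1.07 for H2-D1 and 1.09 for H2-K1 (limma adjusted p = 3.85e-06 and 1.52e-05).

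B2m, the light chain gene that all class I heavy chains share, lies apart from them on chromosome 2 (122147686 to 122153083, plus strand). It was at 1.45, 0.704 and 1.51 RPKM in Ctrl, 7.13, 5.21 and 6.38 RPKM in ONC and 3.32, 3.51 and 3.73 RPKM in TPEN. The groups did not overlap, and the lowest library, Ctrl replicate 2, held 14 reads of B2m. B2m rose in ONC/Ctrl (log2 fold change 2.32, SE 0.24, limma adjusted p = 0.000112). In TPEN/ONC its log2 fold change was -0.80 (SE 0.24, limma adjusted p = 0.0781), which missed the threshold, and without Ctrl replicate 2 the adjusted p of the same value was 0.00546. Over all alternatives this adjusted p ran from 0.00546 to 1. B2m exceeded Ctrl in TPEN with a log2 fold change of 1.52 (limma adjusted p = 0.00241).

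The letters before the start sites of these genes are shown because the genes rose together and because class I promoters are known for a CCAAT-type Y box and for interferon-response letters. Of the 9 genes, 7 had a RefSeq window (GRCm38.p6) of 250 bases before to 50 after a start, in 8 windows in all. On both strands, 4 motifs were searched: GAAANNGAA, the core of an interferon-stimulated response element, TTCNNNGAA, the core of a gamma-activated site, TGACGT, a cyclic AMP response core, and CCAAT, the Y box core. The 250 bases before the start are printed 5′ to 3′ on the strand of the gene for the heavy chains, B2m and the inducible subunit Psmb8, with matched letters in capitals. The sequences lie at chr17:35262844-35263093 (H2-D1, plus strand), chr17:34000334-34000583 (H2-K1, minus strand), chr2:122147437-122147686 (B2m, plus strand) and chr17:34197945-34198194 (Psmb8, plus strand). The RefSeq starts of H2-D1 and Psmb8 lie inside the span that GENCODE gives these genes.
H2-D1: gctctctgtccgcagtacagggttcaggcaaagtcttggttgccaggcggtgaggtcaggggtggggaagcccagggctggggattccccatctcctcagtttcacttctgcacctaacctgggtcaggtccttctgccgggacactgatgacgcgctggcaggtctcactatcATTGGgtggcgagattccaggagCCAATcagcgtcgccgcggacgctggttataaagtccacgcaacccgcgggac
H2-K1: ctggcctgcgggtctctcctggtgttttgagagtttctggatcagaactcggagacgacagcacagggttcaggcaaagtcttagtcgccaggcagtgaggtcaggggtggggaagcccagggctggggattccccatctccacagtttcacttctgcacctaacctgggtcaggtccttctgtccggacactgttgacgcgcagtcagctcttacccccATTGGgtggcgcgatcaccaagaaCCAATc
B2m: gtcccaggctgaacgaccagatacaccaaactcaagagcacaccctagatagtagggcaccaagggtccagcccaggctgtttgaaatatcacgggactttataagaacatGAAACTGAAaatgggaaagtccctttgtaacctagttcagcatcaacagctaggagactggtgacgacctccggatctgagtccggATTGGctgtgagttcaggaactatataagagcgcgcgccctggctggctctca
Psmb8: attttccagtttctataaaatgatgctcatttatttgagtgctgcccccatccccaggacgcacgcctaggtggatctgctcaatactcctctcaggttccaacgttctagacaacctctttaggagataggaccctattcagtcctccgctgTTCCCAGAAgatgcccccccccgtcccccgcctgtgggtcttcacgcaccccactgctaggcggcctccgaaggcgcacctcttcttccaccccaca

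Both heavy chain windows held a pair of Y box letters on opposite strands, ATTGG followed by CCAAT, whose first letters were 23 bases apart in H2-D1 and 24 bases apart in H2-K1. The B2m window held GAAACTGAA beginning 139 bases before the start and ATTGG beginning 53 bases before it. The Psmb8 window held TTCCCAGAA beginning 97 bases before the start and no other match. Tap1 and Tapbp had Y box letters alone, the Psmb10 window had no match, and no class I window held TGACGT. Of 32851 RefSeq windows of the same length, 37.4% held CCAAT, 8.56% GAAANNGAA, 8.30% TTCNNNGAA and 7.51% TGACGT on either strand, and a match is only a description of the letters. Only these exact letters were searched. Variants of an element stay in small letters, so a window without a match may still hold such an element.

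Of the genes of peptide transport, Tap1 and Tap2 rose in ONC/Ctrl, and Tapbp did not reach the limit on fold change. TAP1 and TAP2 together form the peptide transporter, and tapasin bridges it to the class I molecule. Tap1, on chromosome 17 (34187553 to 34197225, plus strand), had 4, 12 and 20 reads in Ctrl, 76, 108 and 88 in ONC and 24, 29 and 17 in TPEN, which gave 0.0326, 0.0948 and 0.182 RPKM, 0.604, 0.859 and 0.6997 RPKM, and 0.219, 0.238 and 0.156 RPKM. Every ONC library exceeded all others, and the TPEN and Ctrl libraries overlapped. The log2 fold change of Tap1 was 2.07 (SE 0.27, limma adjusted p = 0.000410) in ONC/Ctrl and -1.43 (SE 0.27, limma adjusted p = 0.0111) in TPEN/ONC. Summed over libraries and divided by the totals, the reads of ONC were 7.19-fold those of Ctrl (95% exact interval 5.07 to 10.5) and 3.50-fold those of TPEN (2.69 to 4.63), where the intervals cover counting error only. In TPEN/Ctrl its log2 fold change of 0.64 did not pass (limma adjusted p = 0.153), but it passed without Ctrl replicate 3 (0.91, limma adjusted p = 0.0418).

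Tap2 lies beside Tap1 on chromosome 17 (34203527 to 34216321, plus strand). Its level was 0.543, 0.561 and 0.448 RPKM in Ctrl, 0.932, 1.14 and 1.22 RPKM in ONC and 0.635, 0.774 and 0.782 RPKM in TPEN. The groups did not overlap, in the order Ctrl, TPEN, ONC. Tap2 rose in ONC/Ctrl (log2 fold change 0.95, SE 0.15, limma adjusted p = 0.00194), whereas its log2 fold change of -0.53 in TPEN/ONC missed the threshold (limma adjusted p = 0.0730). The exons of Tap2 share 533 bases with Gm15821 and 165 bases with Gm20496 on the other strand. The library kit keeps strand, but the use of strand in counting is not given in the sources used here, so the reads of Tap2 are uncertain there. Gm20496 averaged 0.823, 3.37 and 2.06 RPKM in Ctrl, ONC and TPEN, and its part in the value of Tap2 was not tested.

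Tapbp, on chromosome 17 (33915899 to 33929288, plus strand), had the highest level of the 9 genes in Ctrl, with 15.5, 15.96 and 15.7 RPKM. It was at 18.2, 18.8 and 20.2 RPKM in ONC and 16.4, 18.9 and 17.98 RPKM in TPEN, where the ONC and TPEN libraries overlapped. Its log2 fold change in ONC/Ctrl was 0.28 (SE 0.058, limma adjusted p = 0.00845), which is past the limit on p but not that on fold change, and -0.10 in TPEN/ONC (limma adjusted p = 0.351). Its exons share 665 bases with Gm19412 on the other strand, at a mean of 31.7 RPKM over all libraries, and 61 bases with Zbtb22 on the same strand.

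Of the inducible proteasome subunits, Psmb8 rose and Psmb10 did not pass the test. Psmb8 encodes the subunit that takes the place of PSMB5, and Psmb10 the one that takes the place of PSMB7. Psmb8, on chromosome 17 between Tap1 and Tap2 (34197721 to 34201454, plus strand), was at 0.489, 0.348 and 0.437 RPKM in Ctrl, 1.62, 2.13 and 1.94 RPKM in ONC and 0.878, 1.32 and 1.10 RPKM in TPEN. The groups did not overlap. Its log2 fold change was 1.93 (SE 0.18, limma adjusted p = 5.19e-05) in ONC/Ctrl and 1.18 (limma adjusted p = 0.00178) in TPEN/Ctrl. With TPEN against ONC it fell (log2 fold change -0.75, SE 0.18, limma adjusted p = 0.0334). This call was close to the threshold, and it was lost without ONC replicate 1 (0.0516), ONC replicate 2 (0.118), ONC replicate 3 (0.101), TPEN replicate 1 (0.0977) or TPEN replicate 3 (0.0911), given as limma adjusted p. Psmb8 shares 186 exon bases with Gm20496 on the other strand.

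Psmb10 lies outside the MHC, on chromosome 8 (105935735 to 105938444, minus strand). It was at 1.07, 0.406 and 1.23 RPKM in Ctrl, 1.35, 1.10 and 1.48 RPKM in ONC and 0.470, 1.06 and 0.970 RPKM in TPEN, from 16 to 58 reads per library. The ONC and Ctrl libraries overlapped, as did the TPEN and Ctrl libraries, while all TPEN libraries lay below all ONC libraries. Its log2 fold changes of 0.60 in ONC/Ctrl and -0.66 in TPEN/ONC had standard errors of 0.38 and did not pass (limma adjusted p = 0.313 and 0.353). The value in ONC/Ctrl was 0.17 without Ctrl replicate 2 and 0.86 without Ctrl replicate 3, and that in TPEN/ONC was -0.33 without TPEN replicate 1 and -0.84 without TPEN replicate 2. Neither comparison passed in any of the 9 fits without 1 library (limma adjusted p of 0.187 or more).

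The constitutive subunits gave a reference within each library. Psmb5, Psmb6 and Psmb7 had mean levels of 10.7 to 11.3 RPKM, 15.1 to 17.997 RPKM and 10.3 to 11.0 RPKM in the 3 groups, and limma with or without voom called none of them in any comparison. At an unadjusted p under 0.05, 1 of them, Psmb6, was lower in TPEN/ONC, with a log2 fold change of -0.25 (limma adjusted p = 0.161). The level of Psmb8 was 4.19%, 3.14% and 4.69% of that of Psmb5 in Ctrl, 15.03%, 19.9% and 17.0% in ONC and 8.83%, 9.99% and 10.2% in TPEN. The means were 4.01% ± 0.789 in Ctrl, 17.3% ± 2.47 in ONC and 9.66% ± 0.722 in TPEN (SD, n = 3 libraries), and no groups overlapped. In an exact permutation test over all 280 ways to divide 9 libraries into 3 groups of 3, the log2 ratio differed between the groups with p = 0.00357, the smallest p this design can give, and 0.00714 after Benjamini-Hochberg adjustment over 2 ratios. The log2 ratio was higher by 1.89 in ONC than in Ctrl and lower in TPEN than in ONC by a difference of -0.78. With only 2 of the groups at a time, ONC and Ctrl or TPEN and ONC, the exact permutation test (two-sided) gave p = 0.1, its lowest possible value with 3 libraries against 3. Psmb10 was at 8.27% ± 4.08 of Psmb7 in Ctrl, 11.99% ± 2.28 in ONC and 8.07% ± 2.93 in TPEN (SD, n = 3), and its log2 ratio did not differ beyond the spread of the libraries (exact permutation p = 0.336, adjusted 0.336).

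**Figure D2:**
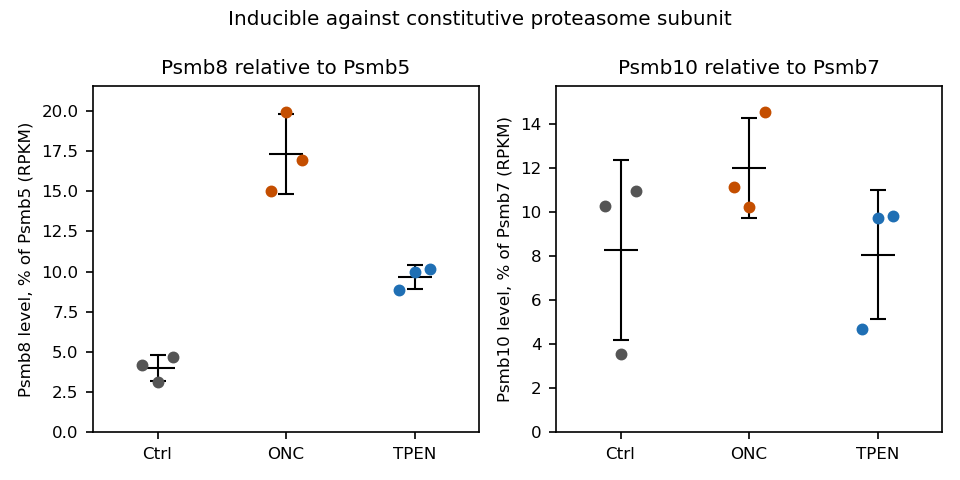
Level of the inducible subunits Psmb8 (left) and Psmb10 (right) as a percentage of the RPKM of the constitutive subunits Psmb5 and Psmb7 (y axes, from 0) in each Ctrl, ONC and TPEN library. Points are libraries and bars are the mean ± SD. Psmb8 has a mean of 4.01% of Psmb5 in Ctrl, 17.3% in ONC and 9.66% in TPEN, without overlap. For Psmb10, Ctrl overlaps with both other groups, and ONC and TPEN do not overlap.

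Nlrc5, the transactivator that binds class I promoters, had the fewest reads of the class I genes in Ctrl and the largest ratio between groups. It lies on chromosome 8 (94434356 to 94527272, plus strand). It had 10, 4 and 2 reads in Ctrl, 117, 115 and 134 in ONC and 19, 37 and 41 in TPEN, or 0.0525, 0.0204 and 0.0117 RPKM, 0.599, 0.590 and 0.687 RPKM, and 0.112, 0.196 and 0.242 RPKM. The groups did not overlap. Summed over libraries and divided by the totals, ONC held 21.8-fold the reads of Ctrl (95% exact interval 13.2 to 38.5) and 3.40-fold those of TPEN (2.71 to 4.30), for counting error only. The log2 fold change of RPKM + 0.1 is smaller than these ratios because of the added 0.1, with 2.51 (SE 0.21, limma adjusted p = 2.33e-05) in ONC/Ctrl and -1.38 (SE 0.21, limma adjusted p = 0.00410) in TPEN/ONC. In TPEN/Ctrl its log2 fold change was 1.13 (limma adjusted p = 0.00609), and after quantile normalization 0.66 (adjusted p = 0.0749).

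**Figure D3:**
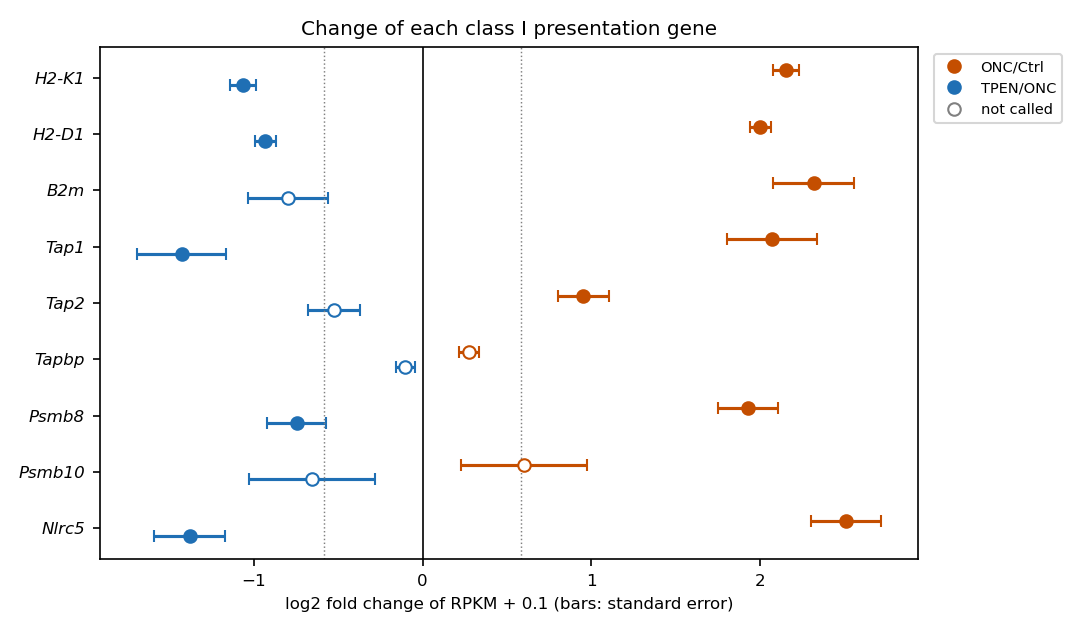
Log2 fold change of RPKM + 0.1 of each class I presentation gene (x axis) in ONC/Ctrl (orange) and TPEN/ONC (blue), with the standard error as bars. Filled points passed the adjusted p and the fold change limit, open points did not, and dotted lines mark a fold change of 1.5. Tap1 and Nlrc5 are from the fit to all listed genes, and Psmb10 and Tapbp are open in both comparisons.

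For the class I genes called up in ONC/Ctrl, TPEN libraries kept a part of the increase. For each gene that rose in ONC/Ctrl, the level in a TPEN library above the Ctrl mean was taken as a share of the ONC mean above the Ctrl mean, as a description without a test. The share was 45.7% ± 4.13 for B2m, 32.8% ± 4.70 for H2-K1 and 36.5% ± 0.685 for H2-D1 (SD, n = 3 TPEN libraries). It was 45.7% ± 14.9 for Psmb8, 36.7% ± 14.2 for Tap2, 26.0% ± 11.0 for Nlrc5 and 16.4% ± 7.01 for Tap1. The median of the 7 genes was 36.5%. The ONC mean entered both the choice of these genes and the share. Tapbp and Psmb10 were not called and have no share. Tapbp averaged 15.7, 19.1 and 17.8 RPKM in Ctrl, ONC and TPEN, and Psmb10 0.902, 1.31 and 0.832 RPKM. The shares of Psmb8, Tap2 and Nlrc5 varied most between the TPEN libraries.

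Other class I heavy chains split into genes that moved like H2-K1 and H2-D1 and genes that did not. Of 24 chains listed, 8 had a level and 6 were tested, of which 3 rose in ONC/Ctrl and 3 fell in TPEN/ONC, with medians of 0.71 and -0.47. Of all genes tested, 4.58% rose in ONC/Ctrl and 1.21% fell in TPEN/ONC. H2-T23, which encodes the nonclassical Qa-1 molecule, rose by a log2 fold change of 1.85 in ONC/Ctrl and fell in TPEN/ONC (-0.83, limma adjusted p = 0.0250). With 0.371 RPKM on average in Ctrl, H2-T23 passed the filter only through its levels after crush. H2-Q4 had 1.78 and -0.95 (limma adjusted p = 0.00578 for the decrease), and H2-Q6 had 1.18 and -0.996 (limma adjusted p = 0.0459 for the decrease). The decreases of H2-T23 and H2-Q6 were lost without any 1 of the 6 ONC and TPEN libraries, and that of H2-Q6 also without Ctrl replicate 3, with limma adjusted p up to 0.0871 and 0.149. H2-K2 and H2-T22 passed in no comparison. Of 9 class I-like molecules 3 had a level, and the 1 tested, Hfe, was not called by limma or voom and had no unadjusted p under 0.05. Below the filter, H2-M3 had 2, 1 and 2 reads in Ctrl, 24 in each ONC library and 7, 8 and 12 in TPEN. Its log2 fold change was 2.44 in ONC/Ctrl and -1.06 in TPEN/ONC (limma adjusted p = 1.67e-05 and 0.0103, fit to all listed genes). H2-Q7, the other chain below the filter, had 2, 6 and 2 reads in Ctrl, 26, 26 and 49 in ONC and 16, 7 and 12 in TPEN. It rose in ONC/Ctrl (1.69, limma adjusted p = 0.00133), and its log2 fold change of -0.91 in TPEN/ONC did not pass (limma adjusted p = 0.0662). Reads of near copies can be split: 36.4% of the 50-base words in the transcripts of H2-Q4, 34.97% of those of H2-Q6, 26.5% of those of H2-Q7 and 53.5% of those of H2-T22 also stand in transcripts of other genes. The share was 9.63% for H2-K1, 12.8% for H2-D1 and 0% for B2m.

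Of 8 genes that help in peptide loading and trimming, 1 rose in ONC/Ctrl and 1 in TPEN/ONC, with medians of 0.12 and 0.018. Of all genes tested, 4.58% and 0.818% rose in these comparisons. Tapbpl, the tapasin-related editor of peptides, rose in ONC/Ctrl (log2 fold change 0.96, limma adjusted p = 0.0229), but not without Ctrl replicate 1, Ctrl replicate 3 or any of the ONC libraries (adjusted p up to 0.0699). At a mean of 0.382 RPKM in Ctrl, Tapbpl passed the filter only through its levels after crush. Lnpep, an aminopeptidase that can trim peptides in endosomes, rose in TPEN/ONC (0.75, limma adjusted p = 0.0130), but not without ONC replicate 2 or TPEN replicate 1. Calr and Canx, the chaperones with the highest levels of the list, were at 326 to 372 RPKM and 117 to 126 RPKM in the group means and did not reach a fold change of 1.5. Of 7 proteasome activator and assembly genes, 1 rose in ONC/Ctrl, beside 4.58% of all genes tested, with list medians of -0.031 and -0.036. It was Psme1, a subunit of the interferon-inducible PA28 cap. Psme1 was at 13.1, 12.2 and 12.9 RPKM in Ctrl, 28.0, 26.4 and 24.9 RPKM in ONC and 19.1, 20.4 and 18.3 RPKM in TPEN, with groups that did not overlap. Its log2 fold change was 1.05 (limma adjusted p = 1.54e-06) in ONC/Ctrl and -0.45 (limma adjusted p = 0.00159) in TPEN/ONC, below the limit on fold change. Its partner Psme2 had 0.30 and -0.21 (limma adjusted p = 0.103 and 0.334), and Psme3, the proteasome cap of the nucleus, -0.031 and 0.013.

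Of 15 transcription factors that act on class I genes, 3 rose in ONC/Ctrl, beside 4.58% of all genes tested. In TPEN/ONC 1 fell, beside 1.21%, and the medians were 0.21 and -0.065. Among the 3, Irf1 rose by a log2 fold change of 1.41 and Irf9 by 1.07 (limma adjusted p = 0.000323 and 4.85e-06), both of them factors of interferon signalling. Irf1 averaged 0.342 RPKM in Ctrl, so it passed the filter only through its levels after crush. Irf9 fell in TPEN/ONC (-0.62, limma adjusted p = 0.000878), but by less than 1.5-fold without TPEN replicate 1. Of 10 genes of interferon ligands, receptors and their kinases, 7 had a level and were tested. Jak1 and Jak2, the kinases with the highest levels of this list, had log2 fold changes of 0.056 and 0.11 in ONC/Ctrl and did not pass (limma adjusted p = 0.337 and 0.235). Only Ifnar2, a chain of the receptor for type I interferon, was called, with 1.65 in ONC/Ctrl and -0.65 in TPEN/ONC (limma adjusted p = 0.000117 and 0.0498). Its decrease was lost without any 1 of the ONC and TPEN libraries, Ctrl replicate 1 or Ctrl replicate 2, with a limma adjusted p of up to 0.155.

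Class II genes, which show peptides to helper T cells and are mainly used by professional antigen-presenting cells, had log2 fold changes above 2 in ONC/Ctrl. Of 11 listed, 4 had a level and 3 were tested. All 3 rose in ONC/Ctrl and fell in TPEN/ONC, beside 4.58% and 1.21% of all genes tested. In Ctrl, H2-Ab1 and H2-Eb1 averaged 0.391 and 0.260 RPKM, below the filter, which took the mean of all libraries. H2-Ab1 was at 0.409, 0.581 and 0.183 RPKM in Ctrl, 5.42, 6.22 and 5.77 RPKM in ONC and 1.04, 0.990 and 1.47 RPKM in TPEN. H2-Ab1 had log2 fold changes of 3.68 and -2.24, H2-Eb1 2.92 and -2.14, and Cd74, the invariant chain, 2.22 and -1.35 (limma adjusted p = 0.00164, 0.00167 and 0.0206 for the decreases). The decrease of Cd74 was lost without any 1 of the ONC libraries, TPEN replicate 1 or TPEN replicate 3. The difference in size between class I and class II was not tested. Ciita, the class II transactivator, averaged 0.234, 0.273 and 0.202 RPKM in Ctrl, ONC and TPEN and did not pass (log2 fold change 0.16 and -0.30, limma adjusted p = 0.600 and 0.365, fit to all listed genes).

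**Figure D4:**
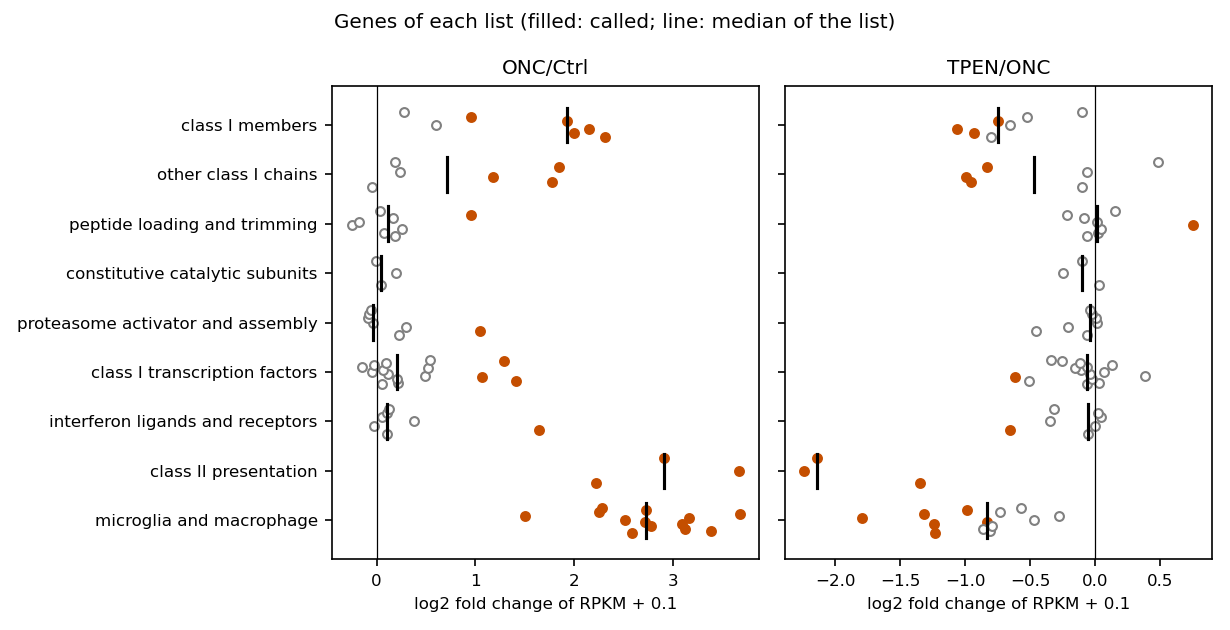
Log2 fold change of RPKM + 0.1 (x axes) of every tested gene of the class I genes and 8 other lists (y axis) in ONC/Ctrl (left) and TPEN/ONC (right). Filled points were called, open points were not, and the black line is the median of a list. The medians of the class I genes are 1.93 and -0.75, those of the constitutive catalytic subunits 0.043 and -0.098, and those of the microglia and macrophage markers 2.73 and -0.83. Most of these markers passed the filter only through their levels after crush.

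The cell type markers moved as follows beside these values. In TPEN/ONC, 6 of the 13 tested microglia and macrophage markers were downregulated, beside 1.21% of all genes tested. In TPEN/Ctrl all 13 were upregulated, beside 3.45%. The decreases of Aif1, Fcer1g and Tmem119 were lost in 5, 4 and 6 of the 9 fits without 1 library. The increase of Fcer1g in TPEN/Ctrl was lost in 7 of the 9. C1qa, a chain of complement C1q and 1 of these 13, averaged 0.809, 9.05 and 5.08 RPKM in Ctrl, ONC and TPEN. It was not among the 6 downregulated in TPEN/ONC (limma adjusted p = 0.0806). Of 9 endothelial markers, 3 had a level (Kdr, Flt1 and Pecam1), and their sum was 13.4 to 14.2 RPKM in Ctrl, 15.7 to 16.1 RPKM in ONC and 16.8 to 17.8 RPKM in TPEN. None of the 3 was called by limma or by voom, and 1 of them was higher at an unadjusted p under 0.05 in each comparison. None of 13 T and NK cell markers was among the genes analysed here. Of 7 Müller glia markers, 2 rose in ONC/Ctrl and 1 fell in TPEN/ONC, and of 4 tested astrocyte markers, 3 rose and 1 fell. The shares of all genes tested were 4.58% and 1.21%. The astrocyte marker Gfap, which Müller glia also express after injury, averaged 2.79, 22.2 and 14.4 RPKM in the same groups. The part of any of these cells in the class I values was not tested.

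The 5 genes whose pattern over the 9 libraries was most like the mean log2 level of the 7 tested class I genes, among genes averaging 1 RPKM or more, were Ola1, Ptpn1, Anxa5, Lyz2 and Parp9. Their Pearson correlations were 0.993, 0.988, 0.987, 0.986 and 0.984 over 9 libraries that form 3 groups, and they are a description without a test. Lyz2, the lysozyme gene of macrophages and microglia, averaged 0.534, 19.3 and 4.48 RPKM in Ctrl, ONC and TPEN. Parp9, an interferon-inducible gene, averaged 0.608, 2.12 and 1.38 RPKM. Ola1, an ATPase gene, spanned a far smaller range, with means of 4.71, 5.79 and 5.24 RPKM.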

How the data were processed

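RNA-seq levels of 9 libraries, 3 each of Ctrl, ONC and TPEN, were used. Per the study's methods, the authors made stranded libraries with molecular identifiers, mapped the reads with STAR to GRCm38/mm10 and called DEGs with edgeR; the submitters' processing notes name Trimmomatic 0.36. The annotation, the counting program, its use of strand and the collapsing of identifiers are not given in the sources used here. The authors deposited RPKM values, which were used as they stand, and their own fold changes and p-values, which were not used.

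Every RPKM value times its gene's length was a whole multiple of 1 step per library (100% of values, tolerance 0.01), which gave read numbers and totals. Differences were tested with limma 3.58.1 (R 4.3.3) with a variance trend on log2(RPKM + 0.1), on genes averaging at least 0.5 RPKM, with all 9 libraries in the fit. The filter took the mean of all groups, so a gene low in Ctrl could pass through its levels after crush. P-values were adjusted over all genes tested by the Benjamini-Hochberg method. A gene was called at an adjusted p under 0.05 with a fold change of at least 1.5. Ratios within a library were compared by exact permutation. Scripts were tested on simulated data. Alternatives were another scaling, filter, pseudocount and test, a replicate block and leaving out each library. Shared words came from GENCODE transcripts, and start windows from RefSeq.

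The genes and lists were chosen with earlier results of these data known. All 10 genes were named by rule. Of each pathway list, up to 4 called genes were named, or the 2 with the highest level where fewer than 2 were called, and of each cell type list the 2 with the highest level. Rbpms, Sncg, Thy1, Pou4f1, H2-M3, H2-Q7, H2-K2, H2-T22, H2-T24, Calr, Canx, Psme2, Pecam1, Nfkb1, Ciita, Aif1, Fcer1g and Tmem119 were named beyond this after their values were seen. Some genes that this rule names are not reported here. Deposited columns of samples outside these 9 numbered 0.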

Additional observations from a re-analysis of the deposited data

How the results depend on the processing

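The number of upregulated class I genes in ONC/Ctrl, 5 of 7, was 4 or 5 of those tested under every alternative with the filter on low genes, and 7 of 9 without it. Without that filter 5 instead of 3 class I genes fell in TPEN/ONC, since Nlrc5 and Tap1 were then tested, and 432 instead of 275 of all genes were called. A pseudocount of 1 gave 457 genes in place of 724 in ONC/Ctrl, 151 in place of 275 in TPEN/ONC and 281 in place of 530 in TPEN/Ctrl. Testing against a fold change of 1.5 gave 297, 47 and 159 genes, and 2 instead of 4 class I genes upregulated in TPEN/Ctrl. Quantile normalization gave 525 upregulated and 184 downregulated genes in ONC/Ctrl, against 622 and 102. The voom fit on read numbers called 659 up and 129 down, 151 up and 219 down, and 533 up and 86 down in ONC/Ctrl, TPEN/ONC and TPEN/Ctrl. Libraries with the same number did not deviate together (correlations of -0.062 to 0.027 over 9 pairs, against -0.037 to 0.051 for 18 other pairs), and the replicate block gave 2 class I genes down in TPEN/ONC, since Psmb8 had an adjusted p of 0.0691.

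When libraries were left out in turn, 685 to 725, 204 to 292 and 500 to 523 genes were called, and 2 to 4 class I genes fell in TPEN/ONC. Psmb10 in TPEN/Ctrl ran from -0.49 to 0.27, turning positive without Ctrl replicate 1 (0.12), Ctrl replicate 3 (0.21) or TPEN replicate 1 (0.27). The log2 ratio of Psmb8 to Psmb5 differed by 1.75 to 2.00 between ONC and Ctrl and by -0.87 to -0.68 between TPEN and ONC. A pseudocount of 1 or the test against 1.5-fold also ended the calls of Tap2 in ONC/Ctrl and of Tap1, Nlrc5 and Psmb8 in TPEN/ONC. An added 1 RPKM shrinks the fold changes of genes with low levels, as the added 0.1 does for Nlrc5. The test against 1.5-fold is stricter than the limit on fold change. Reads were few in Ctrl, with 2 to 10 of Nlrc5, 4 to 20 of Tap1, 14 to 28 of B2m and 16 to 42 of Psmb10, which limits the precision of their ratios.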

Other observations

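The light chain gene lay below both heavy chain genes in every library on the scale per exon length. B2m was at 16.9% ± 6.89 of the RPKM of H2-D1 in Ctrl, 21.1% ± 3.44 in ONC and 22.7% ± 1.304 in TPEN (SD, n = 3). Against H2-K1 it was at 41.3% ± 12.95, 46.9% ± 7.33 and 55.9% ± 7.03, and these ratios were not tested. H2-T24, a nonclassical class I chain, averaged 4.24, 4.78 and 6.74 RPKM in Ctrl, ONC and TPEN, and rose in TPEN/Ctrl alone (log2 fold change 0.67, limma adjusted p = 0.0107), a call that was lost without Ctrl replicate 2 or TPEN replicate 1. Nfkb1, a subunit of NF-kB, was likewise called in TPEN/Ctrl alone (0.88, limma adjusted p = 0.00459). It averaged 0.400 RPKM in Ctrl, so it passed the filter only through its levels after crush.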
